A study of Homo sapiens with 8 samples.

Results

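The genes described here encode enzymes that add or remove histone lysine methylation, and EED and SUZ12, core subunits of the polycomb repressive complex PRC2. They were taken from the expression table by symbol alone (the KDM, KMT and SETD families and a list of enzymes with other names, leaving out 1 Y-linked member), a rule that uses no measured value. Earlier results of these data were known when the members, and the gene lists and pairs below, were chosen. This gave 50 genes of the 21059 tested, and no row matched KDM4E or KDM4F. Transcripts were sequenced in 8 libraries of MDA-MB-157, a breast cancer cell line in long use that is negative for the estrogen receptor. The low-glucose group, 4 replicates, was kept in medium with 5 mM glucose, and the high-glucose group, also 4 replicates, was moved from low-glucose conditioning into medium with 25 mM glucose, the study's culture model of hyperglycemia. Neither group is labelled with a genetic change, and both, per the study's methods, had no serum for the 48 hours of treatment. No library of this series was labelled as an osmotic control, so glucose as a nutrient and glucose as an added solute cannot be told apart. The labels do not say whether the replicates came from separate cultures, and p-values then measure only the spread between these libraries.

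Lysine methylation on histone tails marks chromatin states: trimethylated H3K4 lies at active promoters, methylated H3K36 and H3K79 over transcribed genes, H3K27 trimethylation over genes held silent by polycomb, and H3K9 trimethylation over heterochromatin. The methyltransferases, most of them with a SET domain, take the methyl group from S-adenosylmethionine, the product of the methionine cycle. The Jumonji-type demethylases (KDM2 to KDM8) need oxygen, iron and alpha-ketoglutarate, an intermediate of the citric acid cycle, while KDM1A and KDM1B use flavin. Because both reactions draw on metabolites, these enzymes are often discussed where nutrients change.

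Values are reads scaled to a common library size (CPM) as the authors scaled them, given in the order of replicates 1 to 4, and a fold is given as the log2 change, high minus low glucose, of log2(CPM + 1). A gene was called higher or lower at an adjusted p under 0.05 from limma over all 21059 genes. Each library held an estimated 9722000 to 12483000 reads, so that 3 reads, the lowest level counted here, equal 0.212 to 0.267 CPM, and 50 of the 50 genes averaged at least 1 CPM. ESR1, the estrogen receptor gene, was at 0.121 ± 0.0811 CPM in low glucose (SD, n = 4) and its target TFF1 was listed at 0 in all 8 libraries, while the mesenchymal gene VIM was at 4091 ± 28.5 CPM in low and 2967 ± 210.3 CPM in high glucose (log2 change −0.47, adjusted p = 0.00224) and FN1 at 3612 ± 43.96 and 2537 ± 360.2 CPM (−0.52, adjusted p = 0.00848). The estrogen-related markers PGR and GREB1 were detected, at 4.33 to 5.18 and 3.57 to 5.54 CPM in low glucose, and neither was called. Of the 11 markers of breast and of the line 1 was called higher, EPCAM, and 5 lower, VIM, FN1, KRT8, KRT18 and ERBB2. For these and the markers below, 46.8% of all tested genes were called. The summed level of the 11 markers was 8055 to 8216 CPM in low and 5645 to 5945 CPM in high glucose. Its part in the results was not tested. Markers of other cell types summed to 12.2 to 17.0 CPM in low and 13.6 to 17.1 CPM in high glucose, most of it CD68, with the leukocyte gene PTPRC at 0.0997 ± 0.0758 CPM in low glucose and the myeloid gene LYZ listed at 0 in the 4 low-glucose libraries. Of the 7 such markers measured, 3 were called, the endothelial genes VWF (1.45 ± 0.0904 to 0.310 ± 0.417 CPM, adjusted p = 0.00592) and CDH5 (0.278 ± 0.130 to 0.0206 ± 0.0412 CPM, adjusted p = 0.0116) lower and PECAM1 (2.13 ± 0.580 CPM in high glucose, log2 change 0.63, adjusted p = 0.00775) higher, and their part in the results was not tested. One library stood apart in a way that touches long transcripts: in high-glucose replicate 1, the deviation from the other high-glucose libraries fell with transcript length (Spearman's rho −0.65 over all genes and −0.84 over the 50 genes, a description across genes, which share libraries). The same measure was 0.50 to 0.59 over the 50 genes in the other three high-glucose libraries and −0.33 to 0.33 in low glucose. The median transcript here had 5661 bases against 3437 for all genes of at least 5 CPM, and values without this library, or with the length trend removed from every library, are given beside the members whose calls they changed. The fit with the length trend removed also left out genes under 1 CPM or of unknown length. Calls gained in it therefore cannot be credited to length alone.

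**Figure D1:**
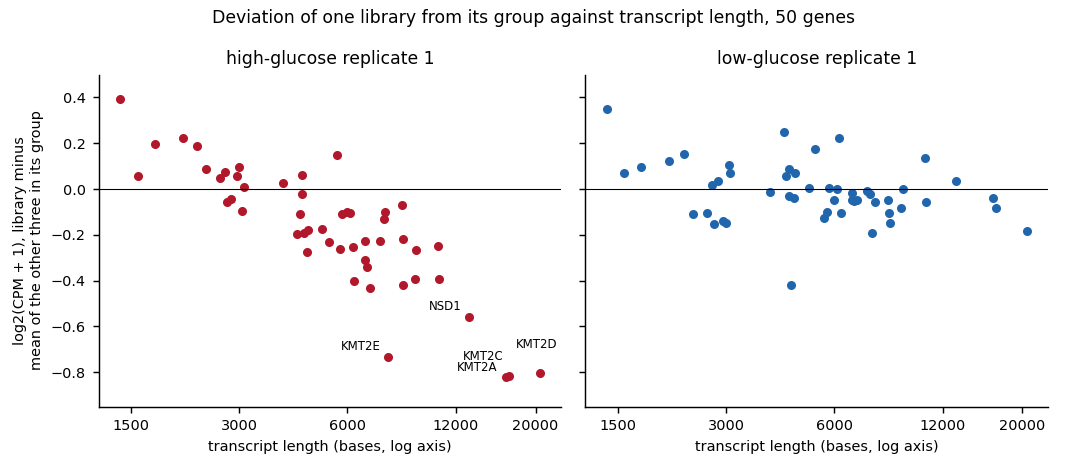
Deviation of replicate 1 of each group from the other three libraries of its group (vertical, difference of log2(CPM + 1)) against transcript length in bases (horizontal, log axis), 1 point per gene, 50 genes. In high-glucose replicate 1 the long transcripts KMT2A, KMT2C, KMT2D and NSD1 lay far below 0 and the shortest ones above it; low-glucose replicate 1 showed a weaker slope, with a rho of −0.33.

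Of the 50 genes, 32 were called, 23 higher and 9 lower in high glucose, and 18 were not called. The background was wide, since 46.8% of all tested genes were called, 22.0% higher and 24.8% lower, and among genes of at least 5 CPM the figure was 66.9%. The share called was near that of genes at a like level (31 of 48 members of at least 5 CPM, 64.6%). Of these 48, 47.9% were higher and 16.7% lower, against 33.6% and 33.3% of all genes at that level. The median log2 change was 0.31 over the 50 genes and −0.0072 over all genes of at least 5 CPM. In 30 of the 50 genes the groups did not overlap, 22 of them with high glucose above, where 44.5% of all genes and 65.0% of those of at least 5 CPM had no overlap. Summed over the 50 genes, expression was 2987 to 3022 CPM in the low-glucose libraries and 3222 to 3949 CPM in the high-glucose libraries, with replicate 1 the lowest of the high group. Without that replicate 36 were called (28 higher and 8 lower, background 48.2%, 22.8% higher and 25.4% lower), and with the length trend removed 41 were called (29 higher and 12 lower, background 69.9%, 33.0% higher and 36.9% lower). As bulk values, these cannot tell a change in every cell from a change in the share of cells that express a gene.

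**Figure D2:**
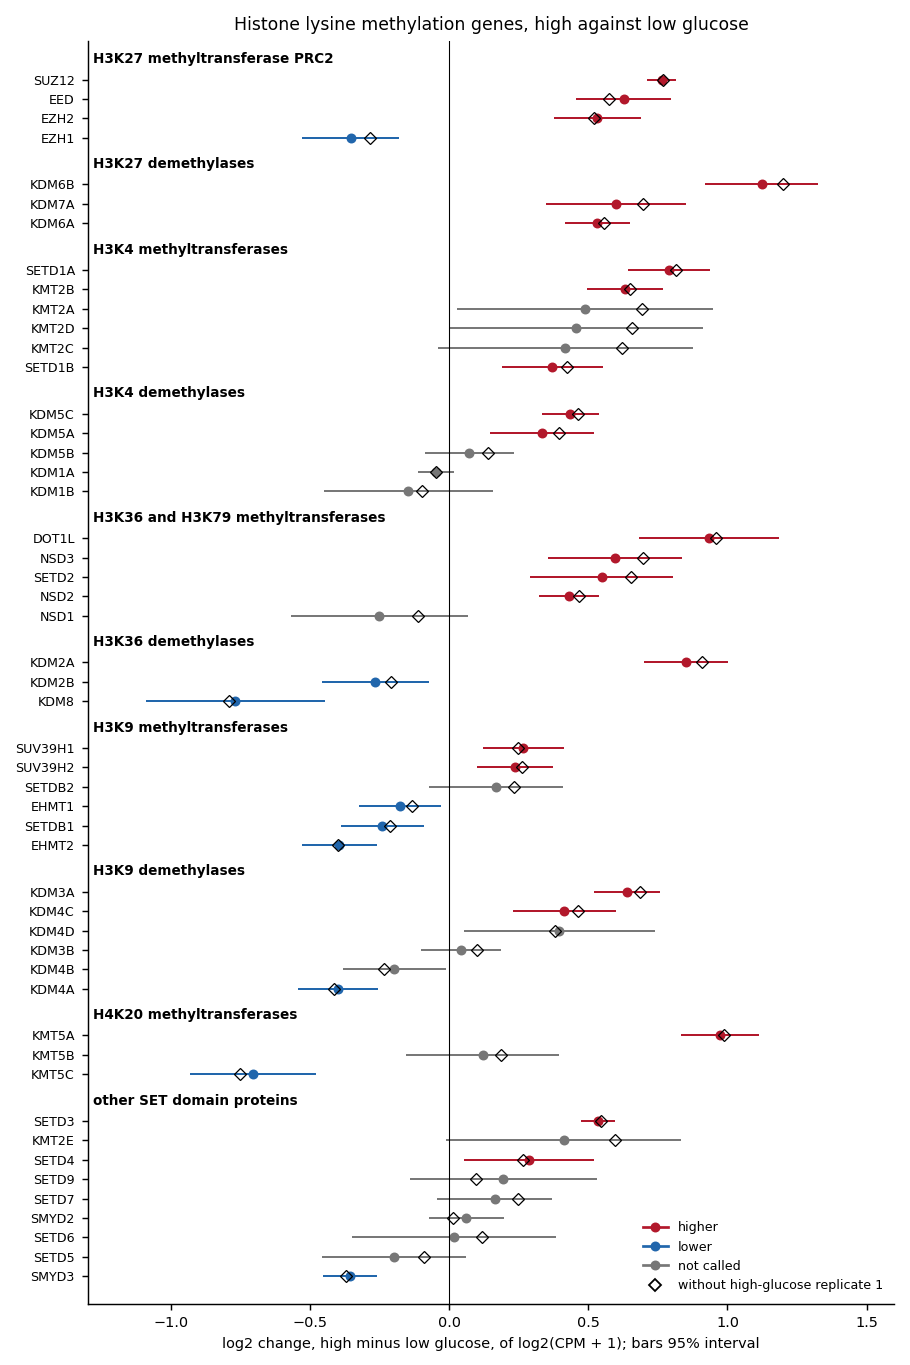
Log2 change of log2(CPM + 1), high minus low glucose, for all 50 genes by the residue they act on. Points are limma estimates over 4 and 4 libraries, bars their 95% intervals, red is called higher, blue called lower and grey not called, and open diamonds give the change without high-glucose replicate 1. The H3K27 demethylases all lie to the right of 0, as do the PRC2 genes SUZ12, EED and EZH2. The diamonds move furthest from the points for KMT2A, KMT2C, KMT2D and KMT2E.

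PRC2, the complex that writes H3K27 methylation, changed in SUZ12, EED, EZH2 and EZH1, the 4 core genes in this set, 3 of them upward. Its core subunits RBBP4 and RBBP7 are counted with the accessory list below. There RBBP7 was called higher and RBBP4 was not called (log2 change 0.025, limma adjusted p = 0.46). The count of 4 and the class counts below stand against 66.9% of all genes of at least 5 CPM called, 33.6% higher and 33.3% lower. KDM8 and KDM4D averaged under that level. In classes this small, high shares of calls are not unusual at that background. SUZ12, the scaffold subunit, was at 66.4, 69.3, 68.2 and 65.8 CPM in low glucose and 114, 117, 115 and 115 CPM in high glucose. The groups were far apart with almost no spread within either, and the log2 change was 0.76 ± 0.02 (SE, adjusted p = 9.9e-07). EED, which binds the finished mark, stood at 17.00, 14.99, 15.1 and 16.6 CPM in low and 28.3, 24.8, 24.6 and 23.1 CPM in high glucose. All high-glucose values lay above all low-glucose values (log2 change 0.63 ± 0.071, adjusted p = 0.000322). EZH2, the main catalytic subunit of dividing cells, was at 17.7, 17.6, 20.6 and 19.2 CPM and then 28.2, 26.1, 26.1 and 29.7 CPM, again without overlap (log2 change 0.53 ± 0.065, adjusted p = 0.000467). EZH1, the alternative catalytic subunit of resting and differentiated cells, went the other way, from 16.3, 16.9, 16.1 and 17.1 CPM to 10.9, 12.9, 13.5 and 13.9 CPM. Its 4 high-glucose libraries all lay below the low-glucose ones, at a log2 change of −0.35 ± 0.073 (adjusted p = 0.00575). None of these 4 calls was lost in any of the 21 alternative fits, which used other pseudocounts, filters and scalings, removed a trend or left out a library. By the transcripts of the annotation, 13.8% of SUZ12 is shared with other genes, mostly the pseudogene SUZ12P1, and 13.8% of EED with overlapping genes, so the authors' counting could have split some of their reads.

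The promoters of these 4 genes are shown because EZH2 and EZH1 encode alternative forms of 1 subunit and moved in opposite directions. Each sequence is the 250 bases before the gene's start from RefSeq (build GRCh38.p14, 5′ to 3′ on the gene's strand, the first promoter listed), and capitals mark CCAAT on either strand or the E2F-type words TTTCCCGC, TTTCGCGC, TTTGCCGC and TTTGGCGC on either strand. Their positions are chr7:148884292-148884541 (minus strand) for EZH2, chr17:31936757-31937006 (plus strand) for SUZ12, chr11:86244503-86244752 (plus strand) for EED and chr17:42745041-42745290 (minus strand) for EZH1, each directly upstream of the first exon.
EZH2: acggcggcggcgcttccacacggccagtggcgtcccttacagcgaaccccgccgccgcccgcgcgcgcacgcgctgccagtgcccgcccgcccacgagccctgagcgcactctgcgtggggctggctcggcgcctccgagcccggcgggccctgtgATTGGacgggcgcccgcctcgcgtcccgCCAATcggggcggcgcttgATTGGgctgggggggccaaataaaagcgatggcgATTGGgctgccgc
SUZ12: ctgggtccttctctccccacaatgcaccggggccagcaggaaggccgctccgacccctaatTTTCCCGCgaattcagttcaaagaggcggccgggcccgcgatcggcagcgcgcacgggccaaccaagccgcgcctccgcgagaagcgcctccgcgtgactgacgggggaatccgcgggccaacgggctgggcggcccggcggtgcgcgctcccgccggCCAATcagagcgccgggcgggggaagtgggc
EED: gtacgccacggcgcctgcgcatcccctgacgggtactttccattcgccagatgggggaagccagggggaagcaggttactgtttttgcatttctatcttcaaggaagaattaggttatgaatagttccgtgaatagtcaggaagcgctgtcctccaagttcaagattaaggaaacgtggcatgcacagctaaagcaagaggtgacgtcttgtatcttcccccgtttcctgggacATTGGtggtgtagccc
EZH1: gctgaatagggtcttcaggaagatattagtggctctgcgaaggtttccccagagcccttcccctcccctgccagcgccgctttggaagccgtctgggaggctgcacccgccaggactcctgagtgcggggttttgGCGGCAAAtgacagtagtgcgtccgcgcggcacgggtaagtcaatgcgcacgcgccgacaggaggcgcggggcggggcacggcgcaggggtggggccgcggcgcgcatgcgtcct
CCAAT occurred 4 times before EZH2, once before SUZ12, once before EED and 0 times before EZH1, while an E2F-type word occurred once before SUZ12, once before EZH1 and 0 times before the other two. Over the first listed promoter of 27305 genes, 33.0% held CCAAT and 2.79% an E2F-type word in this window. Of the 50 genes, 47 had a promoter in the table, of which 36.2% held CCAAT and 8.51% an E2F-type word. CCAAT was in 40.0% of the members called higher and 33.3% of those called lower, and an E2F-type word in 10.0% and 11.1%. These are letter matches, and no binding was measured.

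All 3 H3K27 demethylases rose, where 33.6% of genes of at least 5 CPM were called higher. KDM6B (JMJD3), an inducible demethylase of H3K27 on chromosome 17, was at 43.7, 48.4, 41.7 and 45.7 CPM in low and 83.9, 106, 105 and 102 CPM in high glucose. It had the largest rise of the 50 genes, a log2 change of 1.12 ± 0.085 (adjusted p = 4.57e-05) and a ratio of group means of 2.21. Its X-linked relative KDM6A (UTX), a partner of the KMT2C and KMT2D complexes, measured 76.4, 77.4, 75.3 and 76.4 CPM against 105, 104, 115 and 120.4 CPM. The low-glucose libraries differed by little, and the log2 change of 0.53 ± 0.048 (adjusted p = 0.000108) was smaller than that of KDM6B. KDM7A, which removes dimethyl marks from H3K27 and H3K9, was the least abundant of the 3, with 14.2, 14.4, 15.03 and 15.7 CPM and 18.6, 22.7, 26.1 and 25.2 CPM (log2 change 0.60 ± 0.10, adjusted p = 0.00269). High-glucose replicate 1 had the lowest high-glucose value of KDM6B and KDM7A and still lay above every low-glucose library.

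**Figure D3:**
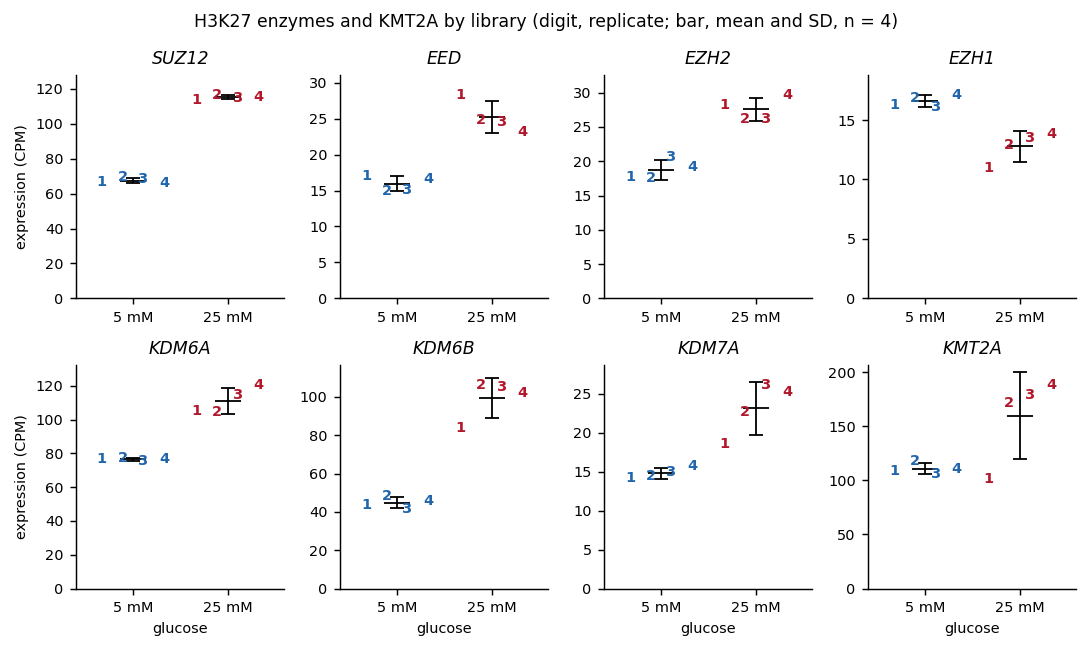
Expression in CPM (vertical, from 0) of 4 PRC2 core genes, the 3 H3K27 demethylases and KMT2A at 5 mM and 25 mM glucose. Digits are replicate numbers and bars the mean ± SD (n = 4). The groups do not overlap for the 7 H3K27 genes, and EZH1 is the only one of these 7 that is lower in high glucose; KMT2A in high-glucose replicate 1 lies below the low-glucose libraries.

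Beside these results stands the proliferation list, because PRC2 is known to follow cell division. Like the other lists, it was chosen with earlier results of these data known. Of its 11 genes 10 rose and 0 fell (33.6% of genes of at least 5 CPM were called higher), among them UBE2C (log2 change 0.74 ± 0.063, adjusted p = 8.29e-05), the ribonucleotide reductase subunit RRM2 (0.44 ± 0.038, adjusted p = 8.56e-05) and the kinetochore gene NDC80 (0.67 ± 0.06, adjusted p = 0.000108). The summed level of the list was 663 to 703 CPM in low and 1013 to 1056 CPM in high glucose. The part of the list in the PRC2 changes was not tested. The list holds the genes of the paper's tumor proliferation score. In the paper's BrdU incorporation assay, which included this cell line, high glucose did not enhance proliferation. Cell division was not measured in these libraries.

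Among the H3K4 methyltransferases, which mark promoters and enhancers, 3 of 6 were called and all 3 rose, while the other three had 1 high-glucose library far from the rest. SETD1A, a catalytic subunit of the COMPASS complexes that set promoter trimethylation, was at 28.5, 31.6, 26.6 and 30.7 CPM in low and 48.7, 51.7, 54.8 and 50.4 CPM in high glucose. No values overlapped (log2 change 0.79 ± 0.061, adjusted p = 5.21e-05). Its paralog SETD1B moved less, from 21.8, 25.4, 22.6 and 24.8 CPM to 27.4, 32.5, 33.2 and 30.3 CPM (0.37 ± 0.075, adjusted p = 0.00555). KMT2B, an MLL-family enzyme, at 90.6, 91.9, 94.1 and 95.3 CPM and 139, 156, 152 and 131 CPM, rose by 0.63 ± 0.057 (adjusted p = 0.000104). For these 3 genes every high-glucose library exceeded every low-glucose library.

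KMT2A, the MLL gene of leukemia translocations, showed 108, 118, 106 and 110.3 CPM in low glucose and 101, 171, 179 and 188 CPM in high glucose. High-glucose replicate 1 fell below the whole low-glucose group and the other three lay well above it, so that the log2 change of 0.49 ± 0.19 was not called (adjusted p = 0.077). KMT2D, an enhancer methyltransferase, had 86.1, 96.5, 98.04 and 99.1 CPM and 85.4, 155, 153 and 143 CPM, and KMT2C, its paralog, 85.7, 93.1, 90.9 and 88.4 CPM and 77.9, 132, 136 and 146 CPM. The pattern was that of KMT2A, with changes of 0.45 ± 0.19 (adjusted p = 0.094) and 0.42 ± 0.19 (adjusted p = 0.121). Without high-glucose replicate 1 the changes were 0.69 (adjusted p = 7.03e-05) for KMT2A, 0.66 (adjusted p = 0.000214) for KMT2D and 0.62 (adjusted p = 8.62e-05) for KMT2C. With the length trend removed and all 8 libraries kept, they were 0.51, 0.50 and 0.44, and the adjusted p values were 5e-05, 6.47e-05 and 0.000172. They were also called with all 8 libraries when only genes of at least 1 CPM were tested (adjusted p 0.0111 for KMT2A, 0.016 for KMT2D and 0.0248 for KMT2C). In the main limma fit over all genes their unadjusted p values, in the same order, were 0.039, 0.0496 and 0.0666. These lay above the adjusted values after the filter, so the filter changed the fit and not only the number of tests. In the fits without replicate 1 and with the length trend removed, 6 of the 6 H3K4 methyltransferases were called higher, and in each of the 7 alternatives that called KMT2A the direction was upward. Their transcripts, at 16600, 20635 and 16860 bases, are among the longest of the set. Of KMT2A's sequence 22.4% is shared with other annotated genes, as is 11.02% of KMT2C's, chiefly with BAGE2.

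The H3K4 demethylases moved less. KDM5C, an X-linked eraser of trimethylated H3K4, was at 205, 204, 203 and 205 CPM in low and 261, 282, 298 and 266 CPM in high glucose. Here the low-glucose libraries were nearly equal and all high-glucose libraries lay above them (log2 change 0.44 ± 0.042, adjusted p = 0.000142). KDM5A rose by 0.33 ± 0.078 (adjusted p = 0.0107), from 33.8, 30.8, 32.02 and 29.4 CPM to 34.9, 42.6, 38.8 and 43.9 CPM. KDM5B, known for its abundance in breast cancer, stood at 195, 202, 190.3 and 192 CPM and 178, 209, 213 and 221 CPM, so that the groups overlapped (log2 change 0.073, 95% interval −0.085 to 0.23, adjusted p = 0.43). Without high-glucose replicate 1 its change was 0.14 (adjusted p = 0.00808). KDM1A (LSD1), the flavin-dependent demethylase, was at 102, 98.1, 96.8 and 97.02 CPM and 95.7, 92.2, 95.3 and 98.1 CPM. Its groups overlapped, and the interval of the log2 change, −0.11 to 0.014, was narrow (adjusted p = 0.186). KDM1A was not called in the main fit but was called lower in 1 of 21 alternatives (limma adjusted p = 0.00147). The sparse paralog KDM1B, at 6.17 to 9.60 CPM in low and 6.28 to 7.51 CPM in high glucose, was not called either (interval −0.45 to 0.15).

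Of the 5 methyltransferases for H3K36 and H3K79, 4 rose, where 33.6% of genes of at least 5 CPM were called higher. DOT1L, the enzyme for H3K79 and the one member without a SET domain in this class, was at 16.1, 21.03, 16.2 and 18.6 CPM in low and 33.2, 36.4, 39.7 and 31.6 CPM in high glucose. Although the replicates scattered, the groups were clearly separate (log2 change 0.93 ± 0.11, adjusted p = 0.000322). NSD2, which writes H3K36 dimethylation, had 40.01, 39.9, 40.6 and 41.5 CPM and 51.2, 54.6, 54.8 and 59.6 CPM (log2 change 0.43 ± 0.044, adjusted p = 0.000202). NSD3, of the same family, was among the most abundant of the set, at 140.04, 145, 144 and 147 CPM in low and 178, 221, 229 and 254 CPM in high glucose. SETD2, which alone trimethylates H3K36 in most cells, measured 47.4, 50.4, 53.8 and 49.2 CPM and 59.2, 78.5, 75.9 and 84.3 CPM. In both, replicate 1 was the lowest of the high-glucose group and above all of the low-glucose group, and the changes were 0.60 ± 0.10 (adjusted p = 0.00228) and 0.55 ± 0.11 (adjusted p = 0.00467). NSD1, the third NSD enzyme, was at 198, 187, 192 and 200.02 CPM and 121, 172, 179 and 188 CPM, and its groups overlapped (log2 change −0.25 ± 0.13, adjusted p = 0.173). Without high-glucose replicate 1 it stood at −0.11 (adjusted p = 0.0576). It was called lower in the fit with the length trend removed and genes under 1 CPM left out, at a nearly equal change (−0.26, adjusted p = 0.000452).

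The 3 H3K36 demethylases split. KDM2A, which binds unmethylated CpG islands and removes H3K36 dimethylation, was at 83.6, 88.4, 84.3 and 79.7 CPM in low and 135, 155, 164 and 155 CPM in high glucose. That was a clear rise (log2 change 0.85 ± 0.063, adjusted p = 4.06e-05). KDM2B, its paralog and a recruiter of the polycomb complex PRC1, fell from 40.02, 38.01, 34.3 and 33.8 CPM to 26.6, 32.97, 31.1 and 30.2 CPM. The ranges lay close together, the change of −0.27 ± 0.08 had an adjusted p of 0.03, and the call was lost in 7 of 21 alternatives, 4 of which left out 1 library (low-glucose replicates 1 and 2 and high-glucose replicates 3 and 4). Across the 8 leave-one-out fits its change ran from −0.31 to −0.21 (adjusted p 0.0259 to 0.0765). KDM8 (JMJD5) was a low-level gene, at 3.83, 5.05, 4.42 and 3.31 CPM and 2.15, 1.51, 2.28 and 2.13 CPM, and it fell by 0.77 on the log2 scale (SE 0.13, adjusted p = 0.00273).

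The H3K9 methyltransferases, writers of silent chromatin, changed by little and in both directions, with 2 higher, 3 lower and 1 not called. EHMT2 (G9a), which sets H3K9 dimethylation, was at 69.9, 68.4, 72.4 and 71.02 CPM in low and 54.1, 53.4, 58.3 and 47.99 CPM in high glucose. Every high-glucose library was below every low-glucose one (log2 change −0.39 ± 0.056, adjusted p = 0.000988), though 10.8% of its sequence overlaps other genes, mostly its antisense gene, and whether the counting used strand is not stated. EHMT1 (GLP), its partner in the same dimer, had 32.3, 29.7, 35.00 and 32.05 CPM and 25.8, 29.1, 29.5 and 29.2 CPM. The change of −0.18 ± 0.061 passed barely (adjusted p = 0.0486) and held in only 8 of 21 alternatives. Any library but low-glucose replicate 2, when left out, took that call away, with adjusted p values up to 0.107.

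SUV39H1 and SUV39H2, the trimethylating enzymes of heterochromatin, were both called higher. SUV39H1 was at 17.9, 15.9, 18.1 and 19.3 CPM and 22.4, 21.9, 21.5 and 20.4 CPM (log2 change 0.27 ± 0.06, adjusted p = 0.00901), and 23.2% of its sequence is shared with another annotated gene. SUV39H2 measured 29.6, 26.7, 29.2 and 26.6 CPM and 31.5, 33.2, 32.00 and 36.2 CPM (0.24 ± 0.057, adjusted p = 0.0115). Their groups were separate but near each other. SETDB1, which silences endogenous retroviruses, fell from 42.2, 37.5, 41.9 and 42.4 CPM to 32.6, 33.7, 33.8 and 38.3 CPM. Its groups overlapped only where low-glucose replicate 2 lay below high-glucose replicate 4 (log2 change −0.24 ± 0.062, adjusted p = 0.0156). SETDB2 was not called (interval −0.068 to 0.41).

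Of the 6 H3K9 demethylases, 2 rose, 1 fell and 3 were not called. KDM3A (JMJD1A), an eraser of H3K9 dimethylation that is a known target of hypoxia-inducible factors, was at 95.2, 92.5, 90.1 and 89.2 CPM in low and 131, 145, 147 and 152 CPM in high glucose. It was the clearest rise of the class (log2 change 0.64 ± 0.049, adjusted p = 5e-05). KDM4C rose from 24.1, 19.6, 19.96 and 20.8 CPM to 25.5, 29.9, 29.03 and 29.2 CPM (0.41 ± 0.077, adjusted p = 0.00377). KDM4A, which demethylates both H3K9 and H3K36, fell from 92.9, 88.2, 89.5 and 84.6 CPM to 69.2, 67.6, 59.8 and 72.1 CPM. All of its high-glucose libraries were below the low-glucose ones (−0.40 ± 0.06, adjusted p = 0.00128), but 54.8% of its sequence is shared with other annotated genes, so that the counts may not be its own. KDM3B, KDM4B and the rare KDM4D were not called, with intervals of −0.10 to 0.18, −0.38 to −0.017 and 0.055 to 0.74. KDM4B, at 33.9, 36.4, 37.1 and 37.9 CPM and 34.2, 33.7, 31.7 and 27.1 CPM, had a log2 change of −0.20 (adjusted p = 0.0723) and was called lower in 6 of 21 alternatives, among them the fit with the length trend removed (−0.25, adjusted p = 0.0147). KDM4D averaged 1.53 ± 0.358 CPM in low and 2.33 ± 0.532 CPM in high glucose (log2 change 0.40, adjusted p = 0.0594). It was called higher in 7 of 20 alternatives, among them the fits with the length trend removed (0.38, adjusted p = 0.0379), without low-glucose replicate 3 (0.49, adjusted p = 0.0302) and without high-glucose replicate 2 (0.48, adjusted p = 0.0348).

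The promoter of KDM3A is shown for the core word of the hypoxia-response element, since other hypoxia genes were measured beside it. It is the 250 bases before the first of its listed starts (RefSeq, GRCh38.p14, chr2:86441121-86441370, plus strand, inside the annotated span of the gene, which begins further upstream), and capitals mark ACGTG or GCGTG on either strand.
KDM3A: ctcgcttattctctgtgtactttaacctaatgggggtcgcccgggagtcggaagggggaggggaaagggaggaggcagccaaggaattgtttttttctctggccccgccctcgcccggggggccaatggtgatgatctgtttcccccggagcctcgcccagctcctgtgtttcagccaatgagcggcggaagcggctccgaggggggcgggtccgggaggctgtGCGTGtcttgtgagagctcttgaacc
One match was found, 26 bases before the start. Such a short word is common: 43.1% of the 27305 promoters and 76.6% of the 47 members held it. By call, 80.0% of the members called higher held it, 88.9% of those called lower and 66.7% of those not called. In the hypoxia list, 6 of 11 genes rose (54.5%, against 33.6% of genes of at least 5 CPM) and 0 fell, with a median log2 change of 0.43, led by the peptide hormone gene ADM (22.8 ± 0.965 to 80.9 ± 10.1 CPM, SD, n = 4, log2 change 1.78 ± 0.086, adjusted p = 6.79e-06), NDRG1 (1.08 ± 0.058, adjusted p = 1.04e-05) and the prolyl hydroxylase P4HA1 (0.45 ± 0.031, adjusted p = 3.34e-05). Only 7 of these 11 genes averaged at least 5 CPM, and over all tested genes 22.0% were called higher. The summed level of the list was 389 to 409.6 CPM in low and 638 to 728 CPM in high glucose, and its part in the KDM3A change was not tested. CA9, a marker of oxygen lack and chosen after its values were seen, was under the level of 3 reads in both groups on average (0.0628 ± 0.0419 and 0.0552 ± 0.0685 CPM).

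The H4K20 enzymes moved apart. KMT5A (SET8), the monomethyltransferase needed in S phase and mitosis, was at 22.6, 27.1, 23.6 and 25.1 CPM in low and 47.6, 49.2, 51.8 and 48.1 CPM in high glucose. All high-glucose values were far above the low-glucose ones, at a log2 change of 0.97 ± 0.058 (adjusted p = 1.56e-05), with 20.2% of its sequence shared with the copy KMT5AP2. KMT5C, which adds further methyl groups to the first in heterochromatin, fell from 15.8, 12.8, 14.1 and 15.7 CPM to 9.53, 8.05, 9.16 and 7.55 CPM. The groups did not overlap (log2 change −0.71 ± 0.094, adjusted p = 0.000744). KMT5B, its paralog, was at 27.2, 25.3, 31.8 and 30.96 CPM and 27.2, 28.5, 36.5 and 33.9 CPM and was not called (interval −0.15 to 0.39, adjusted p = 0.437).

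Among the 9 remaining SET domain proteins, several of which act on other proteins than histones, 2 rose, 1 fell and 6 were not called. SETD3, the histidine methyltransferase of actin, was at 83.6, 83.4, 79.9 and 81.1 CPM in low and 116, 119, 124 and 118 CPM in high glucose. It had one of the smallest errors of the set (log2 change 0.54 ± 0.025, adjusted p = 5.47e-06). SMYD3, with 33.2, 30.7, 32.96 and 31.1 CPM and 25.6, 25.03, 23.3 and 25.2 CPM, fell without overlap (−0.36 ± 0.039, adjusted p = 0.000295). SETD4, at 21.1, 23.9, 20.2 and 26.7 CPM and 29.6, 30.5, 26.97 and 25.6 CPM, was called higher with overlapping groups (0.29 ± 0.097, adjusted p = 0.0456). That call was lost in 6 of the 8 fits that left out a library, with changes of 0.23 to 0.36 and adjusted p values of 0.0159 to 0.110.

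SETD7, a monomethyltransferase, was at 99.5, 103, 103 and 104 CPM and 95.9, 114, 124 and 127 CPM (log2 change 0.16 ± 0.086, adjusted p = 0.169). Replicate 1 was below the low-glucose group and the other three above it, and without replicate 1 the change was 0.25 (adjusted p = 0.00282). It was also called higher with the length trend removed (0.12, adjusted p = 0.0362). KMT2E, which reads H3K4 methylation and has no known enzyme activity, showed the same arrangement, 102, 105, 111 and 102 CPM and 94.9, 144, 167 and 166 CPM (0.41 ± 0.18, adjusted p = 0.101). Without that library its change was 0.59 (adjusted p = 0.000437), and with the length trend removed 0.37 (adjusted p = 0.00317). SETD5, SETD6, SETD9 and SMYD2 were not called, with log2 changes of −0.20, 0.017, 0.19 and 0.062. SETD5 was called lower in 4 of 21 alternatives, among them the fit with the length trend removed (−0.24, adjusted p = 0.00129). SETD6 shares 37.2% of its sequence with overlapping genes.

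Per length, the levels ranged widely. In low glucose KDM5C had the highest level per kilobase of transcript, 35.2 CPM per kilobase, followed by KDM1A at 32.0, SETD5 at 31.8 and SETD3 at 28.7, and SETD6 (0.849) and KDM4D (0.517) had the lowest. In high glucose KDM5C and SETD3 stood at 47.7 and 41.8 CPM per kilobase, above KDM1A at 30.9. By transcript length, 17 of the 22 members under 5000 bases were called, 10 higher and 7 lower, and 15 of the 28 longer ones, 13 higher and 2 lower, where 65.3% of all genes of at least 5 CPM and 5000 bases were called (34.7% higher). Over genes of at least 5 CPM of any length, 66.9% were called, 33.3% lower, and no share was computed for shorter genes alone. Without high-glucose replicate 1 the longer members had 20 calls, 19 of them higher. In that fit 71.0% of all genes of at least 5 CPM were called, 35.4% higher, with no share computed for longer genes alone.

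Several paralogs moved apart, which was tested within each library, where scaling between libraries cancels apart from the pseudocount. For 15 pairs the difference of log2(CPM + 1) between the paralogs was compared between the groups with a 2-sided exact permutation test over the 70 ways to split 8 libraries, whose smallest p is 0.0286, and p-values were adjusted over the 15 pairs. The difference changed in 9 pairs, each at an exact permutation p = 0.0286 and adjusted p = 0.0476, with no overlap of the groups. All 9 stood at the smallest possible p, so their adjusted p depends on how many pairs reached it. Among single genes of at least 5 CPM, 65.0% had no overlap, and no share was computed for other gene pairs. The pairs were chosen with earlier results of these data known, so these p-values are no independent test. EZH2 gained 0.89 on EZH1, NSD2 gained 0.68 on NSD1, KDM3A gained 0.60 on KDM3B and KDM6B gained 0.59 on KDM6A (log2 units). SETD1A gained 0.42 on SETD1B. In the other direction, the change was −1.12 for KDM2B minus KDM2A, the largest of the 15 in size, −0.83 for KMT5C minus KMT5B, −0.41 for SETDB1 minus SETDB2 and −0.26 for KDM5B minus KDM5A.

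In 6 pairs no change was shown by this test, though 4 of them were called with the GC trend removed, which called 13 pairs in all. EHMT2 minus EHMT1 changed by −0.22 (exact permutation p = 0.0571, adjusted p = 0.0857) and KDM4A minus KDM4B by −0.20 (exact permutation p = 0.114, adjusted p = 0.156). SUV39H1 and SUV39H2 differed by 0.029 and KMT2D and KMT2C by 0.038 in their changes. With the GC trend removed, SUV39H1 minus SUV39H2 changed by 0.26, KMT2D minus KMT2C by 0.21, EHMT2 minus EHMT1 by −0.19 and KDM4A minus KDM4B by −0.32 (exact permutation test, adjusted p = 0.033 each). KDM1A minus KDM1B changed by 0.10 (exact permutation p = 0.486, adjusted p = 0.607). For KMT2B minus KMT2A the value was 0.14, but −0.046 without high-glucose replicate 1. The KMT5C call was lost without low-glucose replicate 1 (−0.76, adjusted p = 0.0857). Further calls appeared on leaving out a library: EHMT2 minus EHMT1 without high-glucose replicate 1 (−0.27, adjusted p = 0.0429), KDM4A minus KDM4B without high-glucose replicate 4 (−0.31, adjusted p = 0.0429) and KDM1A minus KDM1B without low-glucose replicate 1 (0.22, adjusted p = 0.0476).

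**Figure D4:**
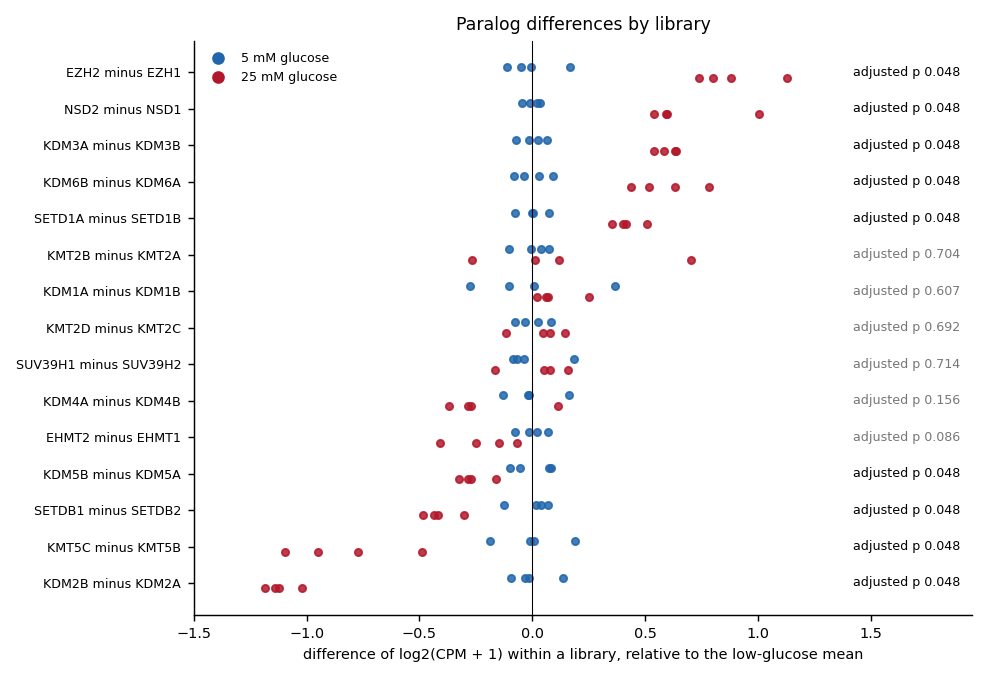
Difference of log2(CPM + 1) between 2 paralogs within each library (horizontal, relative to the mean of the low-glucose libraries) for 15 pairs, blue for 5 mM and red for 25 mM glucose, 1 point per library. The adjusted p is from the exact permutation test; the groups are separate for the 9 pairs at 0.048, with EZH2 minus EZH1 and KDM2B minus KDM2A at the ends.

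The partners of these enzymes were then read from lists of genes, chosen with earlier results of these data known. Their counts stand against 33.6% called higher and 33.3% lower, and a median log2 change of −0.0072, over all genes of at least 5 CPM. Some lists also held genes under that level. It was reached by 9 of the 11 KDM1A partners, 11 of the 12 other methylation and hydroxylase genes and 13 of the 14 methionine genes. Over all tested genes, 22.0% were called higher and 24.8% lower. In PRC2's accessory list, which here includes the core subunits RBBP4 and RBBP7, 6 of the 9 genes measured rose (66.7%). In that list 0 fell, and the median was 0.44. The histone-binding subunit RBBP7 was at 172, 167, 172 and 172 CPM in low and 238, 227, 231 and 230.5 CPM in high glucose (log2 change 0.44 ± 0.02, adjusted p = 5.47e-06). PHF1, a subunit that brings PRC2 to H3K36-marked chromatin, rose by 0.82 ± 0.068 (adjusted p = 7.5e-05) and AEBP2 by 0.38 ± 0.044 (adjusted p = 0.000338). RBBP4, the near twin of RBBP7 and chosen after its values were seen, was at 212 ± 2.43 and 216 ± 6.68 CPM (SD, n = 4, adjusted p = 0.46). The summed level of the list was 554 to 564 CPM in low and 698 to 716 CPM in high glucose.

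PRC1, which ubiquitinates H2A and binds the mark of PRC2, had 11 of 19 subunits higher (57.9%) and 4 lower (21.1%), with a median of 0.41. RYBP, of the variant complexes, was at 31.9, 30.6, 34.4 and 32.9 CPM in low and 70.7, 68.5, 68.5 and 72.8 CPM in high glucose. The ratio of the group means was 2.16 ( log2 change 1.09 ± 0.039, adjusted p = 2.24e-06). PCGF5 (0.80 ± 0.044, adjusted p = 1.1e-05) and YAF2, the paralog of RYBP (0.78 ± 0.053, adjusted p = 3.03e-05), also rose. The catalytic subunits, chosen after their values were seen, moved apart: RNF2 rose by 0.41 ± 0.064 (adjusted p = 0.00155) and RING1 fell, at −0.51 ± 0.081 (adjusted p = 0.00168).

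The shared COMPASS subunits, which serve the H3K4 methyltransferases, had 5 of 14 higher (35.7%, near the background) and 2 lower (14.3%), with BOD1 (0.47 ± 0.052, adjusted p = 0.000301) and RBBP5 (0.56 ± 0.068, adjusted p = 0.000451) higher and PAGR1 lower (−0.63 ± 0.10, adjusted p = 0.00181). The core subunit WDR5, chosen after its values were seen, was at 40.7 ± 2.88 and 42.4 ± 1.20 CPM (adjusted p = 0.408). Of the partners of KDM1A in the CoREST complex 5 of 11 rose (45.5%) and 3 fell (27.3%). RCOR3 rose by 0.55 ± 0.039 (adjusted p = 3.53e-05), the deacetylase HDAC1 by 0.41 ± 0.035 (adjusted p = 7.68e-05) and GSE1 by 0.78 ± 0.08 (adjusted p = 0.000201). ZMYM2 was listed at 0 in all 8 libraries and is counted in the 11 as not called. The cause of that 0 was not tested. HP1 and the other H3K9 silencing partners had 2 of 11 higher and 2 lower (18.2% each, below the background): ZNF644 rose (0.39 ± 0.058, adjusted p = 0.0013), while the HP1 genes CBX5 (−0.47 ± 0.095, adjusted p = 0.00553) and CBX1 (−0.12 ± 0.028, adjusted p = 0.0112) fell.

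A further list held other lysine methylation enzymes and Jumonji hydroxylases, with symbols outside the families above. Of its 12 genes, 4 were higher (33.3%, at the background) and 3 lower (25.0%). JMJD6, a Jumonji hydroxylase, was at 58.3, 54.9, 55.5 and 56.96 CPM in low and 134, 131, 127 and 124 CPM in high glucose. Its log2 change was above those of all 50 genes ( 1.18 ± 0.031, adjusted p = 9.9e-07). The H3K9 and H4K20 demethylase PHF8 rose by 0.54 ± 0.071 (adjusted p = 0.000717), and the ribosomal hydroxylase RIOX2 fell (−0.23 ± 0.03, adjusted p = 0.000567).

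The cofactor genes moved both ways. In the methionine and S-adenosylmethionine list 4 of 14 rose (28.6%) and 5 fell (35.7%), both near the background. MAT2A, which makes S-adenosylmethionine outside the liver, was at 224, 218, 219.8 and 215 CPM and 268, 263, 282 and 276 CPM (log2 change 0.31 ± 0.027, adjusted p = 8.46e-05). MTRR, which keeps methionine synthase active, rose by 0.57 ± 0.053 (adjusted p = 0.00013). SHMT2, the mitochondrial serine hydroxymethyltransferase, fell from 234 ± 5.05 to 125 ± 12.4 CPM (SD, n = 4, −0.90 ± 0.066, adjusted p = 3.94e-05). Of 18 enzymes that make or use alpha-ketoglutarate, succinate or fumarate, 9 rose and 7 fell (38.9%), so that 88.9% were called where the background was 66.9%. PSAT1, which yields alpha-ketoglutarate during serine synthesis, fell from 158, 148, 147 and 147 CPM to 69.9, 68.2, 62.5 and 67.5 CPM (−1.15 ± 0.041, adjusted p = 2.2e-06). The mitochondrial dehydrogenase IDH2 fell from 57.3, 62.6, 61.1 and 54.9 CPM to 24.6, 23.8, 25.6 and 23.5 CPM (−1.24 ± 0.048, adjusted p = 3.08e-06), and IDH3A, a subunit of the citric acid cycle enzyme, rose (0.70 ± 0.039, adjusted p = 1.23e-05). Metabolites and histone marks were not measured in these libraries.

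**Figure D5:**
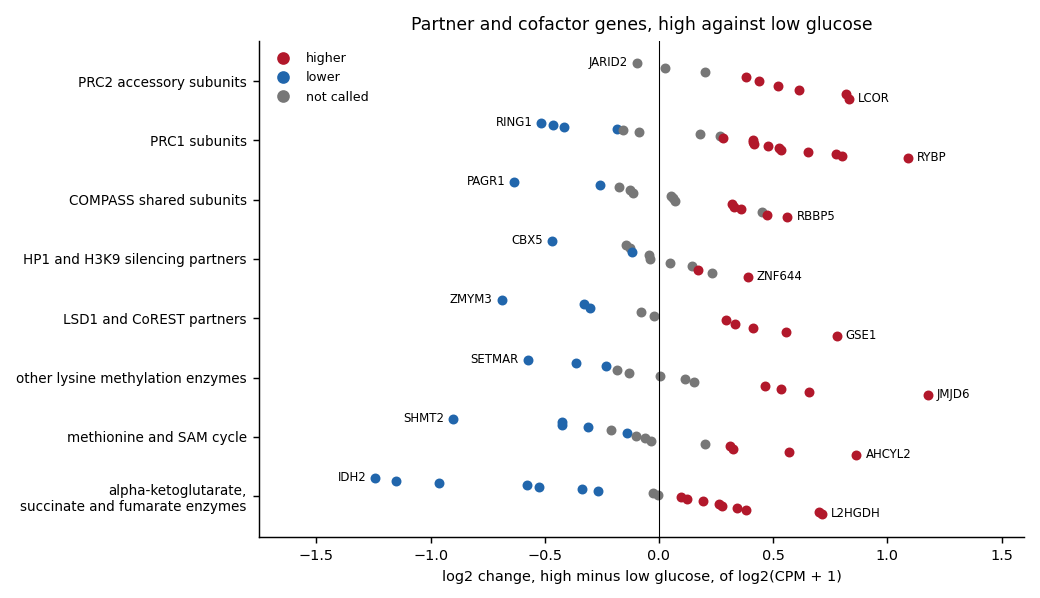
Log2 change of log2(CPM + 1), high minus low glucose, of the genes of 8 partner and cofactor lists, 1 point per gene, red called higher, blue called lower and grey not called; the lowest and highest gene of each list are named and ZMYM2, at 0 in all libraries, is left out. The accessory PRC2 subunits have no blue point, while IDH2 is the lowest and JMJD6 the highest gene shown.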

How the data were processed

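RNA was sequenced from MDA-MB-157 cells at 5 mM or 25 mM glucose, 4 libraries each, grouped and numbered by their titles. The authors deposited 1 table of CPM, read counts scaled to a common library size; the submitters' notes name edgeR and hg38. The study's methods describe, for tumors, a stranded mRNA library kit, alignment to hg19 and an Ensembl annotation with TopHat, a filter on low CPM and TMM scaling (trimmed mean of M values). Whether the cell line libraries used the same kit and annotation, the counting tool and its strand setting are not given in the sources used here. Columns summed to 855279 to 882494 CPM and only 73.2% to 74.6% of low values (under 200 reads) were whole multiples of 1 read (tolerance 0.02 reads), so counts were not recovered. Estimated depths (sum divided by the value of 1 read, 0.0706 to 0.0889 CPM) and floors cover counting error only.

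Of 21077 lines, 18 identical pseudoautosomal Y copies were dropped, and 21059 genes were tested on log2(CPM + 1) with limma 3.58.1 in R 4.3.3 (lmFit, eBayes with trend, 2-sided, no covariate) and Benjamini-Hochberg adjustment; 856 were at 0 throughout. The script was tested on simulated data. Transcript lengths, GC and shared sequence (exact words of 31 bases, both strands) came from GENCODE v44 on GRCh37, and length was available for 20730 genes and all 50 members. The length trend was removed per library with a natural spline (5 degrees of freedom) over genes of at least 1 CPM. The fits with a length or GC trend removed tested only such genes. Positions and promoters are RefSeq's (GRCh38.p14) and describe the annotation, since the table's build is not settled. Members, lists and pairs were chosen with earlier results of these data known. In full were named 19 genes fixed by role and up to 3 per class with the smallest adjusted p; the other members are given because each is accounted for, and in the lists up to 3 genes by adjusted p are named. Of 155 listed genes, 148 were in the table.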

Additional observations from a re-analysis of the deposited data

Results flagged for a closer look

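In 134 groups of 4 values, 5 held a library far from the other three by Dixon's ratio of its gap to the range (past its 95% critical value), and chance alone gives about 6.7 such groups. For KDM3B, low-glucose replicate 4 was high, at 85.9 CPM with the nearest at 83.4 (ratio 0.905), and for SETDB1, low-glucose replicate 2 was low, at 37.5 CPM with the nearest at 41.9 (ratio 0.901). EHMT1 in high-glucose replicate 1 was low, at 25.8 CPM against 29.1 (ratio 0.883). In the same library the log2 difference of NSD2 and NSD1 was −1.23, with the nearest at −1.63 (ratio 0.879). The estimated reads of low-glucose replicate 4 were the highest of its group, 12104000 against 10623000 (ratio 0.864).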

How the results depend on the processing

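Over 21 alternatives (other pseudocounts, filters, scalings, the length or GC trend removed, a replicate block, no mean-variance trend, each library left out), the members called ranged from 27 to 41, the members higher from 20 to 29, the members lower from 7 to 12 and the median log2 change of the members from 0.28 to 0.35, and genes called among all tested from 8120 to 10156. The replicate numbers did not pair the samples: same-numbered libraries deviated with correlations of −0.040 to 0.069 over 11297 genes, and only replicate 1 of each group correlated best with its own number. The replicate block gave 27 members called. It gave 0 paralog pairs called, with and without the length trend removed, since its smallest possible p is 0.125. Leaving out 1 library gave 29 to 36 members called, 22 to 28 higher, 7 to 8 lower, 8899 to 10156 genes called, a median of 0.28 to 0.32 and 9 to 10 paralog pairs. The fit with the length trend removed and without high-glucose replicate 1 together was chosen after seeing the data.

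Of the 32 members called, 27 kept their call in all alternatives run and 5 (EHMT1, KDM2B, KDM5A, SETD4 and SUV39H2) did not. Of the 18 not called, 5 stayed so in all of them and 13 were called or turned sign in at least 1. Outside the block 9 to 13 paralog pairs were called, 13 with the GC trend removed. Signs turned only for values near 0: KDM5B −0.017 and KDM3B −0.063 with quantile normalization, KDM3B −0.0027 with the length trend removed (with or without the block), and SETD6 −0.030 with the length trend removed (with or without the block), −0.021 with the GC trend removed and −0.082 to 0.12 on leaving out a library. Among pairs, KDM1A and KDM1B gave −0.16 with quantile normalization, SUV39H1 and SUV39H2 −0.013 without high-glucose replicate 1 (−0.013 to 0.095 over leaving out each library), and KMT2B and KMT2A −0.046 without it (−0.046 to 0.28) and −0.061 with the length trend removed as well. KMT2A, KMT2C, KMT2D and KMT2E were also called higher after filters of 1 and 5 CPM. These filters changed both the number of tests and the genes from which limma estimated the variance. The cause of these shifts was not tested, and fold changes of low genes such as KDM8 and KDM4D are understated by the pseudocount of 1.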
